A study of Rattus norvegicus with 8 samples.

Results

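The 40 genes described here are genes of mitosis and cell proliferation, a list that runs from the mitotic cyclins and kinases to the motors of the spindle, the ring of cytokinesis and the proliferation marker Mki67. They were followed in the fetal rat testis after exposure of the mother to dibutyl phthalate (DBP), a plasticiser. Each gene was represented by 1 probe set, the single-symbol probe set with the highest mean over all 8 arrays. 36 of the 40 genes had such a probe set, out of 14217 genes in all. Nek2, Tpx2, Ncapg and Rrm2 had none and are not analysed here.

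Dividing cells switch on these genes late in the cell cycle. Cyclins bind Cdk1 to drive entry into mitosis, the chromosomal passenger complex and the spindle checkpoint hold chromosomes until they are attached, and Cdc20 and Ube2c then direct the anaphase promoting complex (APC/C) to destroy the cyclins so that the cell can exit. In the late fetal testis Sertoli cells are the main population known to multiply, which makes these transcripts a common readout of growth in this tissue.

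All animals were fetuses of the Fischer 344 rat strain, sampled on gestational day 20. In the vehicle group (4 arrays) the dam received corn oil alone, by gavage once a day from gestational day 12 to 20. In the DBP group (4 arrays) the dam received 50 mg/kg body weight of DBP on the same schedule. Testes of both groups were collected 6 h after the last dose and their RNA was hybridised to Affymetrix Rat 230 2.0 arrays, 1 array per sample. The labels do not say whether the replicates of a group came from separate dams, so the p-values speak only of the spread among these samples, which may be technical.

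The tissue carried the transcripts of a fetal testis. The Sertoli cell hormone Amh averaged 12.64 and the Leydig cell enzyme Cyp17a1 12.62 on the log2 scale, against array medians of 6.08 to 6.13. Germ cells were covered thinly, by 4 of 12 marker genes, with Sycp3 at 9.15 and Nanos3 at 4.86. Arrays have no read depth, and the number of arrays, 4 a group, limits the precision. Arrays correlated at 0.991 to 0.998 and RNA integrity numbers were 8.6 to 8.8. The 3' minus 5' difference of the beta-actin controls was 0.80 and 0.75 in DBP replicates 3 and 4, within the 0.62 to 0.92 of the other 6 arrays. DBP replicates 3 and 4 stood apart in other controls. Their poly-A spike-in controls averaged 4.84 and 4.79, against 6.46 to 7.17 on the other 6 arrays. The 3' minus 5' difference of their GAPDH controls was 0.29 and 0.26, against 0.14 to 0.20. Counts and medians over the mitosis genes are therefore given for all 4 DBP arrays and also for DBP replicates 1 and 2 and DBP replicates 3 and 4 apart, while the confidence intervals are for all 4. For single genes the pairs are given where they lay on opposite sides of the vehicle arrays or where a result rests on them.

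The promoters show what the genes have in common in sequence. Genes of this class are known to carry a cell cycle homology region (CHR) near the start of transcription, often with CCAAT boxes upstream of it, which the DREAM and MuvB complexes and the factor NF-Y read. RefSeq promoter sequences (GRCr8, 250 bases before to 50 after the start) were available for 34 of the 40 genes, and those of Ccna2, Aurkb, Ube2c, Tpx2, Racgap1 and Rrm2 were not used here. The 4 genes below are those with a CHR among the 7 with the smallest unadjusted p for DBP, and are shown so that the arrangement of the motifs can be read. Each sequence runs in the direction of transcription. Capitals mark every CHR (TTTGAA or TTCGAA, or TTCAAA for TTTGAA on the other strand) and every CCAAT box (CCAAT, or ATTGG on the other strand).
Nusap1, chr3:127057045-127057344, plus strand: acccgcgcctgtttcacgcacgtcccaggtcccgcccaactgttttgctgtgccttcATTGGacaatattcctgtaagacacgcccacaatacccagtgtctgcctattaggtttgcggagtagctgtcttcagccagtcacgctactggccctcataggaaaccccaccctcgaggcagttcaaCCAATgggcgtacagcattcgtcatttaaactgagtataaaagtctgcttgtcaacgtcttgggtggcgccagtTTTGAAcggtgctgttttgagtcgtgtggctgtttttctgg
Cdca8, chr5:142483150-142483449, minus strand: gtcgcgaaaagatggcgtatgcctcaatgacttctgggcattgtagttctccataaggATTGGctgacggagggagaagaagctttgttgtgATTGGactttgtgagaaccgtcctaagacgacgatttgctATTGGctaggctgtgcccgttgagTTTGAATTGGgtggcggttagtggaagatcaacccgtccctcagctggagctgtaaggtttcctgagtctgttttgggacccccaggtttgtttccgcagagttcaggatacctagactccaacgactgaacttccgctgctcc
Ncapd2, chr4:159677889-159678188, minus strand: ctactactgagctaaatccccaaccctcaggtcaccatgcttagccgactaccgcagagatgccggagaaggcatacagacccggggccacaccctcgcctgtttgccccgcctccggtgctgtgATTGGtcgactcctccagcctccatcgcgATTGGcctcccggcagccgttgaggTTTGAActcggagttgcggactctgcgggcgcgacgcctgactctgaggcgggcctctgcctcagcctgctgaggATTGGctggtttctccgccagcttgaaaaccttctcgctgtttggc
Top2a, chr10:84473044-84473343, minus strand: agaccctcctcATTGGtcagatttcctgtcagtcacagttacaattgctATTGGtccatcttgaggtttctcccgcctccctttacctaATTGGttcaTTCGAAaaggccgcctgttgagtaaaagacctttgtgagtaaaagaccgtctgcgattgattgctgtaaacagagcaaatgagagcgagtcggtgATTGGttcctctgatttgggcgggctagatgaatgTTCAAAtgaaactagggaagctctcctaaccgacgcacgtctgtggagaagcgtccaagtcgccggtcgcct

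In Nusap1 the CHR began 10 bases into the transcript, and CCAAT boxes began at positions -65 and -193 relative to the start. Top2a held 2 CHR matches and 4 CCAAT boxes, Ncapd2 held 1 and 3, and Cdca8 held 1 and 4, the last of which shares 1 base with the CHR. Across the list a CHR was found in 25 of 34 promoters (73.5%), against 51 of 104 other cell division genes (49.0%) and 3509 of 18999 protein-coding genes (18.5%). A CHR that began within 50 bases of the start was found in 50.0%, against 27.9% and 4.81%. CCAAT boxes were found in 85.3% of the listed genes, against 49.0% and 38.4%, and both motifs together in 67.6%, against 23.1% and 7.64%. The E2F motif, searched as TTTCCCGC, TTTGGCGC, TTTGGCGG and TTTCGCGC on both strands, was found in 1 listed gene, Cdk1 (2.94%), against 13.5% of the other cell division genes and 2.96% of protein-coding genes. TTTAAA, a variant sometimes counted as a CHR, was searched apart and was present in 10 of the 34, among them Ccnb1. That is 29.4%, against 14.4% of the other cell division genes and 12.4% of protein-coding genes. A match is a description of the letters, not a binding site, and the motif share was not tested.

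**Figure D1:**
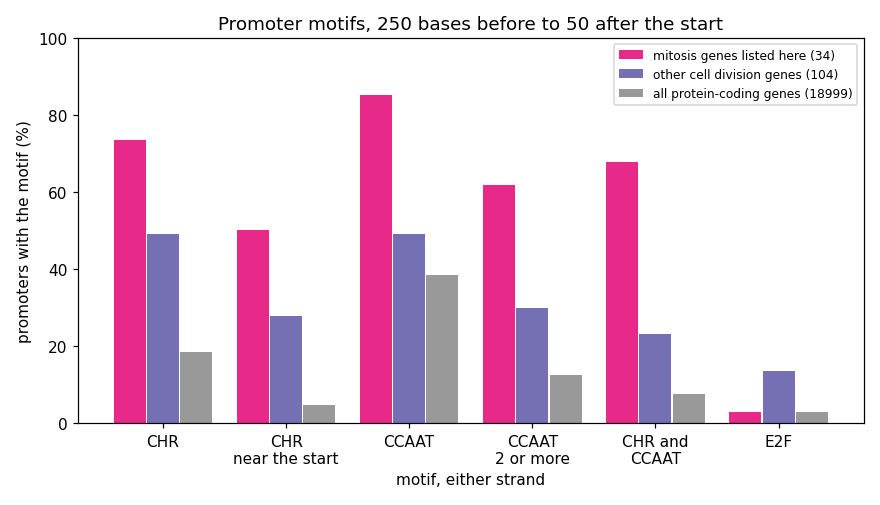
Share of promoters (percent, linear axis from 0) that hold each motif on either strand, for the mitosis genes (34), the other cell division genes (104) and all protein-coding genes (18999). The mitosis genes carry a CHR in 73.5% and CCAAT boxes in 85.3% of promoters, while the E2F motif is found in 2.94%.

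After DBP the mitosis genes were close to the vehicle level. Of the 36 measured genes 17 had a lower mean in DBP, 17 a higher mean and 2, Ccnf and Cenpf, exactly the same mean. Their median log2 change was 0.00, beside 0.02 for all 14217 genes and -0.01 for the 7919 genes at least as bright as the dimmest member. Single changes ran from -0.18 for Smc2 to 0.18 for Ube2c, the largest being a factor of 1.13. In limma, with Benjamini-Hochberg adjustment over 31042 probe sets, 0 of the 36 passed an adjusted p of 0.05 in either direction, where 1.22% of all genes (and 1.07% of all probe sets) did. The smallest adjusted p was 0.246 (Ube2c). At an unadjusted p under 0.05, 1 member was higher and 0 were lower, where 11.3% of all genes were higher and 7.84% lower. For each of the 36 genes the 2 groups overlapped, while among all genes the DBP arrays lay wholly below the vehicle arrays for 5.56% and wholly above for 7.31%. In whole tissue fewer cells of a type and less RNA per cell cannot be told apart.

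The confidence intervals over all 4 DBP arrays were narrow. They speak only of the spread among these samples, which may be technical, and do not bound the effect of DBP. They also pool both pairs of DBP arrays, which for Cenpf, Bub1b and Kif11 lay on opposite sides of the vehicle arrays. The 95% confidence interval of all 36 genes lay within a factor of 1.5 in either direction, that of 29 within 1.25 and that of 27 within 1.2. Over all genes the intervals lay within those factors for 96.4%, 70.9% and 51.9%. The lowest limit was -0.50 (Smc2) and the highest 0.40 (Smc4), both of them genes in which 1 DBP array stood away from the others.

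**Figure D2:**
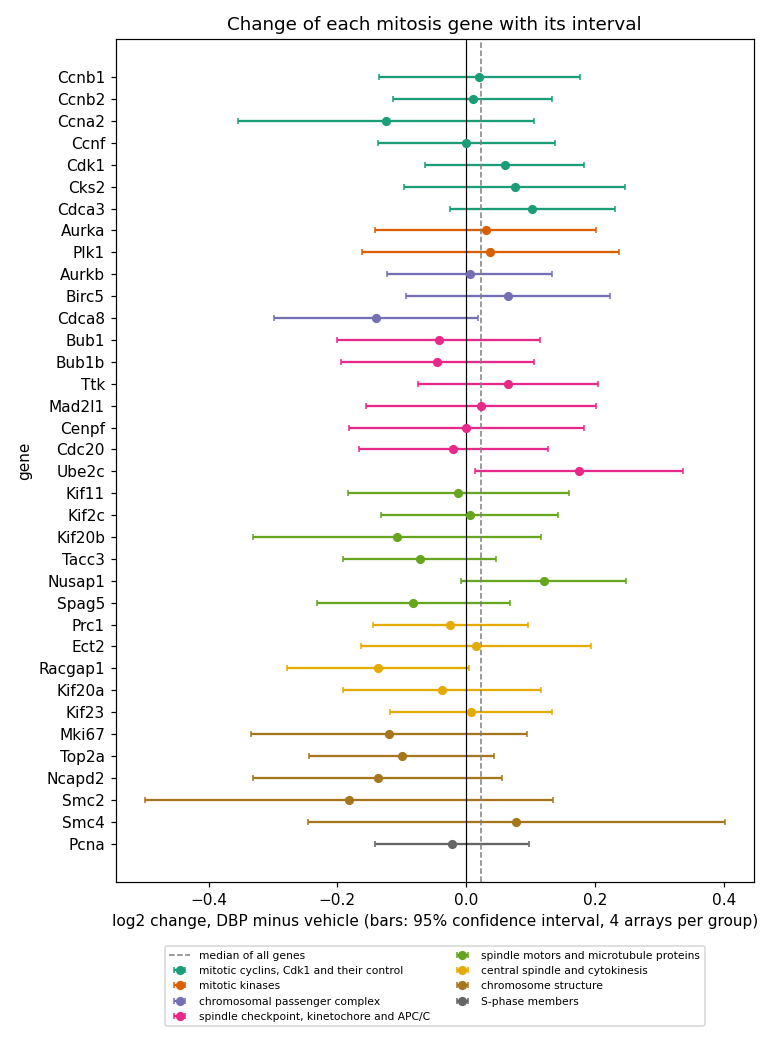
Log2 change of each mitosis gene, DBP minus vehicle (4 arrays per group), with its 95% confidence interval from limma, coloured by role; the dashed line is the median of all genes (0.02). All 36 intervals stay between -0.50 and 0.40, and only that of Ube2c lies wholly on one side of 0.

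Among the mitotic cyclins, Cdk1 and their partners, 5 of 7 genes had a higher mean in DBP and 0 passed the test, with a median change of 0.02. Ccnb1 encodes cyclin B1, the partner of Cdk1 at mitotic entry. It read 10.15, 10.07, 10.12 and 10.11 in vehicle replicates 1 to 4 and 10.30, 10.16, 10.07 and 10 in DBP replicates 1 to 4. The first DBP pair lay above every vehicle array and the last array below all of them. The means, 10.11 ± 0.03 and 10.13 ± 0.13 (SD, n = 4 each), were apart by 0.02 (95% interval -0.14 to 0.18). A second probe set of Ccnb1, of similar brightness, differed by 0.10. Cdk1, the kinase itself, read 10.57, 10.55, 10.59 and 10.59 in vehicle and 10.66, 10.57, 10.72 and 10.59 in DBP. Only DBP replicates 1 and 3 exceeded the vehicle range, and the change was 0.06 (-0.06 to 0.18). Cdca3, an adaptor for the destruction of the Wee1 kinase, read 9.33, 9.38, 9.36 and 9.31 in vehicle and 9.42, 9.45, 9.55 and 9.37 in DBP. The lowest DBP array lay inside the vehicle range, and the change of 0.10 (-0.03 to 0.23) had an adjusted p of 0.366. Cyclin A2 (Ccna2) had the lowest value of the group, -0.12, with DBP replicate 4 at 9.34 against 9.61 to 9.88 on the other 7 arrays. Without that array its change was -0.02. The cyclin B2 gene Ccnb2 (0.01), cyclin F gene Ccnf (0.00) and the Cdk-binding subunit Cks2 (0.07) completed the group.

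The mitotic kinases Plk1 and Aurka, which act at centrosomes and the spindle poles, differed by 0.04 and 0.03 between the groups. Their median was -0.03 in DBP replicates 1 and 2, with both genes lower, and 0.10 in DBP replicates 3 and 4, with both higher. Plk1 read 8.86, 9.06, 9 and 8.97 in vehicle and 8.77, 9.13, 8.97 and 9.17 in DBP. Its DBP arrays lay on both sides of the vehicle range, with a DBP SD of 0.18 beside 0.08 in vehicle, and its adjusted p was 0.849. In the chromosomal passenger complex the kinase Aurkb differed by 0.01 and survivin (Birc5) by 0.07. Borealin (Cdca8), another subunit, read 8.12, 8.32, 8.36 and 8.29 in vehicle and 8.13, 8.11, 8.04 and 8.25 in DBP. All 4 DBP arrays were under the vehicle mean, and DBP replicates 2 and 3 were below every vehicle array. Vehicle replicate 1 was lower than DBP replicates 1 and 4. The change of -0.14 (-0.30 to 0.02) had a limma adjusted p of 0.322.

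The spindle checkpoint, kinetochore and APC/C genes had a median change of 0.00, with 3 of 7 lower, 3 higher and 0 past the threshold. Ube2c, the ubiquitin-conjugating enzyme of the APC/C, was the gene with the smallest p of the list. It read 10.30, 10.45, 10.43 and 10.32 in vehicle and 10.50, 10.44, 10.72 and 10.54 in DBP. DBP replicates 1, 3 and 4 were above every vehicle array and DBP replicate 2 was not, giving 10.38 ± 0.08 and 10.55 ± 0.12 (SD, n = 4 each) and a change of 0.18 (0.01 to 0.34; unadjusted p = 0.0361, adjusted 0.246). The checkpoint kinases Bub1 (-0.04) and Ttk (0.06), the checkpoint proteins Bub1b (-0.04) and Mad2l1 (0.02) and the APC/C activator Cdc20 (-0.02) all had adjusted p-values above 0.5. Bub1b differed by 0.05 in DBP replicates 1 and 2, both above every vehicle array, and by -0.14 in DBP replicates 3 and 4, both below every one. Cdc20 had 5 probe sets, which did not read alike: the representing one and a second of similar brightness differed by -0.02 and -0.01, while a dimmer one at a mean of 5.63 differed by -0.26 (adjusted p = 0.175). Cenpf, a kinetochore protein abundant in G2 and mitosis, read 9.75, 9.76, 9.66 and 9.75 in vehicle and 9.85, 9.90, 9.58 and 9.59 in DBP. The first DBP pair was above all vehicle arrays and the second below all of them, and the means of the groups were equal.

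Of the spindle motors and microtubule proteins 4 of 6 had a lower mean and 0 passed, with a median of -0.04. Nusap1, which bundles spindle microtubules near chromosomes and whose promoter is printed above, read 10.15, 10.23, 10.14 and 10.17 in vehicle and 10.32, 10.36, 10.30 and 10.19 in DBP. All 4 DBP arrays were above the vehicle mean and 3 above every vehicle array, and the change was 0.12 (-0.01 to 0.25, adjusted p = 0.302). Its second probe set differed by 0.11. Tacc3, which steadies kinetochore fibres, read 8.93, 8.99, 9.01 and 8.99 in vehicle and 8.94, 8.86, 8.96 and 8.87 in DBP. These ranges overlapped, and the change was -0.07 (-0.19 to 0.05, adjusted p = 0.483). Kif20b, a kinesin of late mitosis and cytokinesis, read 8.45, 8.39, 8.46 and 8.31 in vehicle and 8.54, 8.40, 8.21 and 8.03 in DBP. Its SD was 0.22 in DBP and 0.07 in vehicle, with the second DBP pair below every vehicle array, and the change over all 4 was -0.11 (-0.33 to 0.12). The group also held Spag5 at -0.08, the spindle kinesin Kif11 at -0.01 and the microtubule-depolymerising kinesin Kif2c at 0.01. Kif11 was 0.12 above the vehicle mean in DBP replicates 1 and 2 and -0.14 from it in DBP replicates 3 and 4, again above and below every vehicle array.

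Central spindle and cytokinesis genes had a median of -0.03, with 3 of 5 lower and 0 past the threshold. Racgap1, the GTPase-activating subunit of centralspindlin, read 9.79, 9.91, 9.89 and 9.84 in vehicle and 9.76, 9.83, 9.62 and 9.67 in DBP. All 4 DBP arrays were below the vehicle mean, but DBP replicate 2 lay inside the vehicle range. The change was -0.14 (-0.28 to 0.00, unadjusted p = 0.0548, adjusted 0.284), and -0.07 in its second probe set. Its partner in centralspindlin, Kif23, differed by 0.01, and by -0.165 in a second, dimmer probe set. The midzone bundling protein Prc1 differed by -0.03, the kinesin Kif20a by -0.04 and the RhoA activator Ect2 by 0.01.

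The 5 measured genes of chromosome structure had a median change of -0.12, with 4 of 5 lower and 0 past the threshold. That median was -0.02 without DBP replicate 4 and ran from -0.18 to -0.02 when each array was left out in turn. Mki67, the coat protein of mitotic chromosomes, read 10.01, 10.04, 10.04 and 10.07 in vehicle and 10.02, 10.11, 9.94 and 9.61 in DBP. DBP replicate 1 lay within the vehicle range, replicate 2 above it, and replicates 3 and 4 below it. The change was -0.12 (-0.33 to 0.09, adjusted p = 0.517), and it was -0.02 without DBP replicate 4. Top2a, the topoisomerase that untangles sister chromatids, read 10.51, 10.59, 10.50 and 10.54 in vehicle and 10.51, 10.54, 10.36 and 10.33 in DBP. Its last 2 DBP arrays were below all others, and the change was -0.10 (-0.24 to 0.04, adjusted p = 0.425).

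The condensin subunits, which compact chromosomes, had changes of both signs. Ncapd2 read 9.14, 9.20, 9.12 and 9.15 in vehicle and 9.01, 9.20, 8.76 and 9.09 in DBP, a change of -0.14 (-0.33 to 0.06, adjusted p = 0.416), and -0.05 without DBP replicate 3. Smc2 read 8.40, 8.14, 8.20 and 8.08 in vehicle and 8.24, 8.18, 8.13 and 7.54 in DBP. The last array alone lay below the vehicle range, and the change went from -0.18 (-0.50 to 0.13, adjusted p = 0.505) to -0.02 without it. Smc4, which pairs with Smc2 in the same complex, read 7.12, 6.95, 7.04 and 6.85 in vehicle and 6.89, 6.87, 7.58 and 6.93 in DBP. DBP replicate 3 alone was high, and the change went from 0.08 to -0.09 without it. Its second, dimmer probe set differed by -0.13 and read 5.51 on that array, within the other arrays' range of 5.04 to 5.53. Of the 2 listed genes of S phase, Pcna, the sliding clamp of DNA replication, was measured. It read 12.06, 12.03, 12.01 and 12.01 in vehicle and 12.06, 12.00, 12.03 and 11.93 in DBP, a change of -0.02 (-0.14 to 0.10, adjusted p = 0.847).

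**Figure D3:**
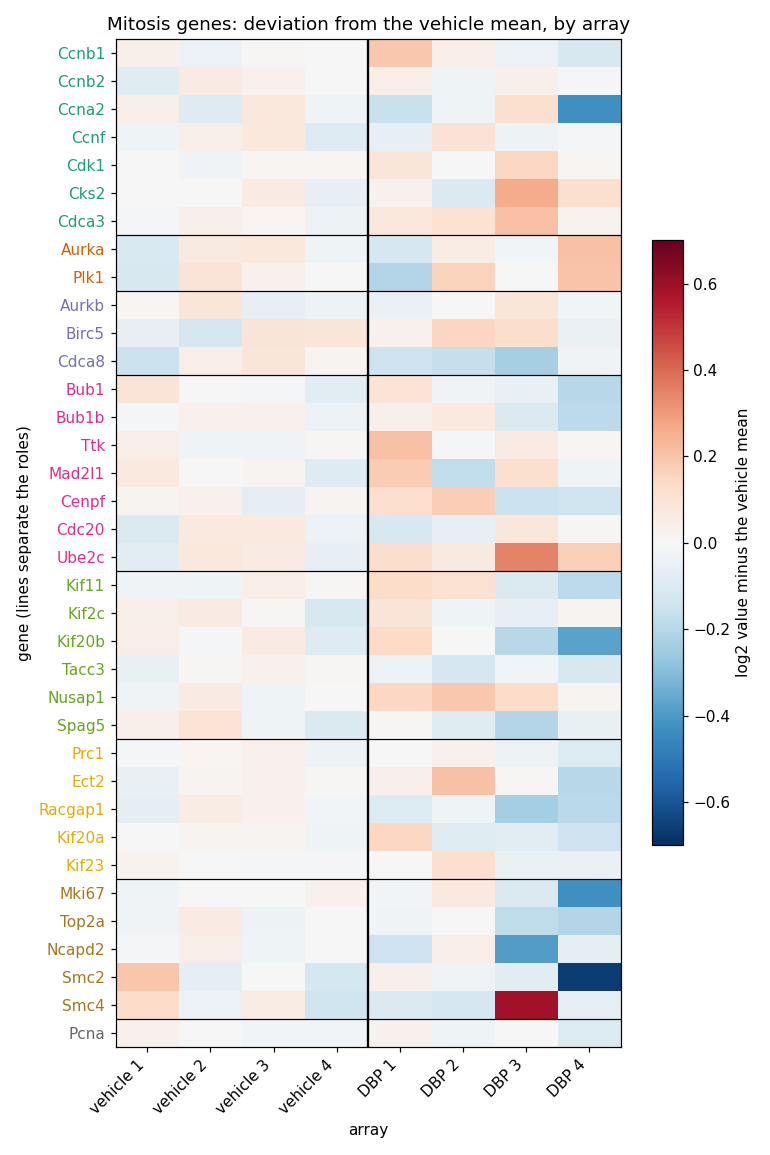
Log2 value of each mitosis gene on each array minus its mean over the 4 vehicle arrays, with genes ordered by role and the thick line between vehicle and DBP arrays. The vehicle columns are paler than the DBP columns, and the deepest colours are single DBP cells: Smc2, Ccna2 and Mki67 in replicate 4 (low), Ncapd2 (low) and Smc4 (high) in replicate 3.

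The DBP arrays were less alike than the vehicle arrays. The SD over DBP arrays exceeded that over vehicle arrays in 29 of the 36 genes, with medians of 0.11 and 0.05, and over all genes it did so in 79.9%, with medians of 0.12 and 0.07. DBP replicate 4 was the lowest of the 8 arrays for 13 of the 36 genes and lay below all 4 vehicle arrays for 18. Over all genes it did so for 19.1% and 32.1%, and over those at least as bright as the dimmest member for 24.5% and 43%. DBP replicate 1 lay above all vehicle arrays for 15 genes and below them for 6, beside 33.6% and 23.9% of all genes and 34.5% and 31.2% of the equally bright ones. The mean over the 36 genes was 9.24 in DBP replicate 4 and 9.30 to 9.35 on the other 7 arrays.

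Taken apart, the pairs of DBP arrays gave different counts against the same 4 vehicle arrays. In DBP replicates 1 and 2, 23 of 36 genes had a higher and 13 a lower mean, with a median of 0.02, and 0 passed an adjusted p of 0.05 (background 1.67%). The share with a lower mean was 36.1%, beside 42.3% of all genes and 47.5% of those at least as bright as the dimmest member. The smallest adjusted p there was 0.201, for Nusap1. At an unadjusted p under 0.05, 2 were higher (Nusap1 0.17, Cenpf 0.15; background 8.83%) and 0 lower (background 6.52%). In DBP replicates 3 and 4, 22 genes had a lower and 14 a higher mean. Their median was -0.06, beside 0.02 over all genes and -0.03 over the equally bright ones. The share with a lower mean was 61.1%, beside 44.9% of all genes and 57.3% of the equally bright ones. At an unadjusted p under 0.05, 8 were lower, namely Kif20b, Racgap1, Top2a, Mki67, Ncapd2, Smc2, Cenpf and Bub1b. At that level 13.7% of all genes and 1477 of the 7919 equally bright ones were lower. Ube2c (0.26) and Cks2 (0.18) were higher at that level, where 19.4% of all genes and 914 of the equally bright ones were. The groups did not overlap for 10 lower and 2 higher members, beside 18% and 23.8% of all genes. Among the 7919 equally bright genes they did not overlap for 2029 lower and 1346 higher.

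Kif20b alone passed the adjusted threshold in DBP replicates 3 and 4. Its change there was -0.28 (limma, adjusted p = 0.0473), beside 5.37% of all genes that passed in the lower and 7.43% in the higher direction. The call was lost when the arrays were shifted to the same median (adjusted p = 0.0560), after quantile normalization (0.0552) and when any vehicle array was left out (0 members passed in each of those 4 fits). With DBP replicate 4 left out 3 members passed, Ube2c and Smc4 higher and Ncapd2 lower, and with DBP replicate 3 left out 4 passed, Ccna2, Kif20b, Mki67 and Smc2, all lower. In the fit without replicate 4, 7.91% of all genes passed as higher and 6.34% as lower, and in that without replicate 3, 6.18% passed as lower. Those fits rest on 1 DBP array, which is assumed to vary like the vehicle arrays.

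By role, the difference between the pairs was widest for chromosome structure, whose median was -0.01 in the first pair and -0.23 in the second. All 5 cytokinesis genes were lower in the second pair and 4 of 5 were higher in the first. The mean of replicates 3 and 4 minus that of replicates 1 and 2 ran from -0.38 (Smc2) and -0.35 (Kif20b) to 0.38 (Smc4). Its median was -0.07, with 23 of 36 genes lower. Over all genes 6760 of 14217 were lower, with a median of 0.005. Of those at least as bright as the dimmest member 4524 of 7919 were lower, with a median of -0.025. The split is by array and no test was made. The second pair is also the pair with the low spike-in signal. The 11 stroma markers, all measured, averaged 11.20, 11.23, 11.14 and 11.00 in DBP replicates 1 to 4, against 11.24 to 11.32 in vehicle. Every DBP array thus lay below every vehicle array, and replicates 3 and 4 were the lowest. Over all 4 DBP arrays 9 of the 11 had a lower mean, beside 42.6% of all genes. The 10 measured of 13 erythroid markers averaged 8.52 and 8.39 in DBP replicates 1 and 2, against 7.85 to 8.17 on the other arrays. The 9 measured of 12 Sertoli markers averaged 10.62 to 10.78 in DBP and 10.69 to 10.74 in vehicle. That average covers changes of both signs, from -0.35 to 0.25, with 5 markers lower and 3 higher. The groups did not overlap for 1 lower and 2 higher Sertoli markers, beside 5.56% and 7.31% of all genes. The part of these differences in the results on mitosis genes was not tested. Among marker genes of 8 cell types, 1 passed the threshold, where 1.22% of all genes did. It was the endothelial gene Plvap (0.36, limma adjusted p = 0.0471). That call was lost without any single vehicle array (0.124 to 0.142), without DBP replicate 3 (0.0999) and in DBP replicates 1 and 2 (0.0673).

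**Figure D4:**
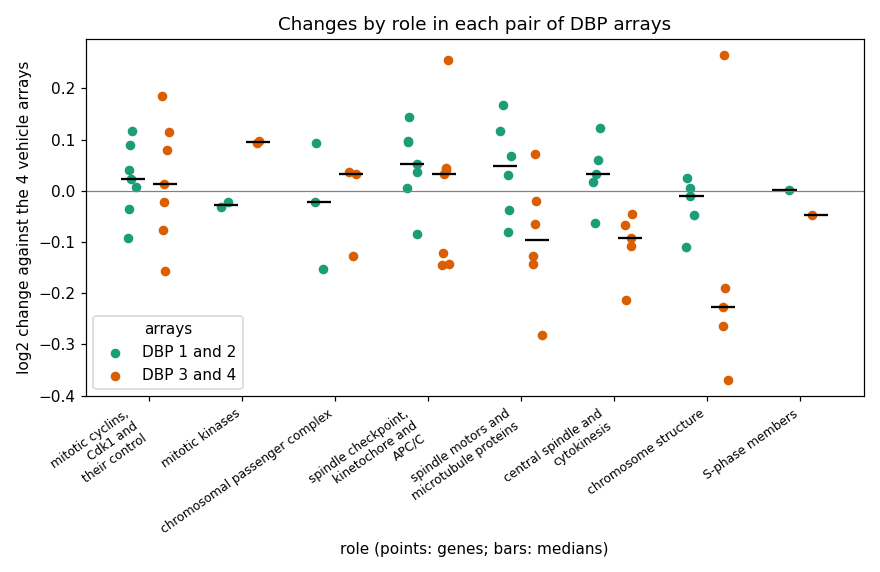
Log2 change of each mitosis gene against the 4 vehicle arrays, for DBP replicates 1 and 2 (green) and DBP replicates 3 and 4 (orange), grouped by role, with bars at the medians. For chromosome structure the median is -0.01 in the first pair and -0.23 in the second, and Smc4 is the single gene of that role above 0.2.

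Genes with and without a CHR, counted without the TTTAAA variant, had similar changes after DBP, as a description of the list. Of the members without one, Ccnb1, Aurka, Bub1, Kif11, Kif2c and Kif20a held TTTAAA. The split therefore does not separate genes with any form of CHR from genes with none. The 24 measured members with a CHR had a median change of 0.00, with 11 lower, while the 8 without one had a median of -0.00, with 4 lower. In DBP replicates 3 and 4 the medians were -0.06 for both. Over the array as a whole, the 675 genes with both a CHR and a CCAAT box had a median change of 0.02, the same as the 11733 genes with a promoter sequence.

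Lists of further cell division genes, 116 of 127 measured, gave 1 gene past the threshold, where 1.22% of all genes passed it. E2f2, an activator of genes for S phase entry, was lower: it read 7.17, 7.39, 7.25 and 7.16 in vehicle and 6.95, 6.92, 6.81 and 6.75 in DBP. The groups did not overlap, and the change was -0.39 (-0.55 to -0.22), a fold of 1.31 (limma, adjusted p = 0.0369). It was -0.31 in the first pair of DBP arrays (limma, adjusted p = 0.0927) and -0.46 in the second (0.0146). The call was lost on leaving out any single vehicle array (0.0780 to 0.133) and without DBP replicate 1, 3 or 4 (0.0504 to 0.0920). It was also lost when the arrays were shifted to the same median (0.0518) and with a term marking DBP replicates 3 and 4 (0.103). That term leaves the change of the first pair, so it is no separate check. Over the 116 genes 12 were lower and 3 higher at an unadjusted p under 0.05, beside 7.84% and 11.3% of all genes. Of the 7919 genes at least as bright as the dimmest mitosis gene, 856 were lower and 620 higher at that level. The median change of the 116 genes was -0.03, beside 0.02 for all genes and -0.01 for those 7919.

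E2f2 belongs to the regulators of mitotic gene transcription, 17 of 21 of which had a lower mean, with a median of -0.09. Among all genes 42.6% had a lower mean, and among those at least as bright as the dimmest mitosis gene 54.3%. The median was -0.04 without DBP replicate 4, -0.05 after quantile normalization (14 of 21 lower) and -0.03 in DBP replicates 1 and 2 (14 of 21 lower). The next genes by p were the atypical repressors E2f8 (-0.25, adjusted p = 0.177) and E2f7 (-0.18, 0.217) and the MuvB subunit Lin54 (-0.25, 0.183). Foxm1, the activator of late cell cycle genes, differed by -0.06. Condensin and cohesin genes other than the listed members were lower in 13 of 13 cases, with a median of -0.09 and 0 past the threshold. They were lower in 12 of 13 under quantile normalization, in 11 with array weights and in 8 in DBP replicates 1 and 2. Their smallest p-values were those of the cohesin regulators Pds5a (-0.17, adjusted p = 0.175), Wapl (-0.22, 0.213) and Pds5b (-0.16, 0.232). Cdk inhibitors, which restrain the cell cycle, had the opposite sign in 7 of 8 genes, with a median of 0.14 and 0 past the threshold. A higher mean in DBP was found in 8051 of all 14217 genes and in 3549 of the 7919 at least as bright as the dimmest mitosis gene. Of the inhibitors 6 of 8 were higher in each pair of DBP arrays, and 5 of the 6 with a signal above the median were higher over all 4. Cdkn1b (p27) differed by 0.14, with all DBP arrays above all vehicle arrays (adjusted p = 0.231), Cdkn1a (p21) by 0.20 (0.231) and Cdkn2a by 0.15 (0.293).

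Over all 4 DBP arrays the remaining 4 lists had medians of -0.02 to 0.01 and 0 genes past the threshold. In centromere and kinetochore genes (14 of 25 lower, median -0.00) the lowest p-values were those of Zwilch, a checkpoint protein of the kinetochore (-0.35, adjusted p = 0.115), the cohesin protector Sgo2 (-0.51, 0.119) and the centromeric histone Cenpa (-0.12, 0.361). Zwilch read 8.50, 8.48, 8.49 and 8.49 in vehicle and 8.40, 8.21, 8.06 and 7.90 in DBP, every DBP array being below every vehicle array. In spindle, centrosome and cytokinesis genes (15 of 23 lower, median -0.02) they were the centriole proteins Cenpj (-0.36, 0.0896) and Sass6 (-0.20, 0.256), and Cdca5 (0.27, 0.391), in which DBP replicate 4 alone read 4.78 against 3.84 to 4.02. In the APC/C with securin and separase (8 of 16 lower, median -0.00) they were Anapc11 (0.16, 0.253), Anapc1 (-0.15, 0.321) and Cdc23 (-0.11, 0.379). Among mitotic entry phosphatases and inhibitory kinases (4 of 10 lower, median 0.01) they were the APC/C inhibitor Fbxo5 (-0.17, 0.264), the Cdk1 inhibitory kinase Wee1 (-0.17, 0.283) and Ensa (-0.15, 0.365).

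In the pairs of DBP arrays more of these 116 genes passed. In DBP replicates 3 and 4, 562 of the 7919 genes at least as bright as the dimmest mitosis gene were lower at an adjusted p under 0.05, and 339 were higher. Of the 116 genes 11 were lower and 2 higher at that level, and the shares over all genes are the 5.37% and 7.43% given above. From the remaining 4 lists these were Zwilch (-0.51, limma adjusted p = 0.00726), Cenpj (-0.50, 0.0112), Wee1 (-0.30, 0.0187), the APC/C subunit Cdc27 (-0.34, 0.0476) and the spindle kinesin Kif15 (-0.25, 0.0380), and the medians of those lists were -0.04 to -0.06. The others were the regulators E2f2, E2f7, Lin54 and Rbl1, the cohesin regulators Wapl and Pds5b, all lower, and the Cdk inhibitors Cdkn1a and Cdkn2b, both higher. In DBP replicates 1 and 2 another pair of genes passed, Cdc25b (0.57, adjusted p = 0.0213), the phosphatase that activates Cdk1, and the cohesin loader Nipbl (-0.76, 0.0340), where 1.67% of all genes did. In DBP replicates 3 and 4 these differed by -0.21 (0.154) and 0.15 (0.406).

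**Figure D5:**
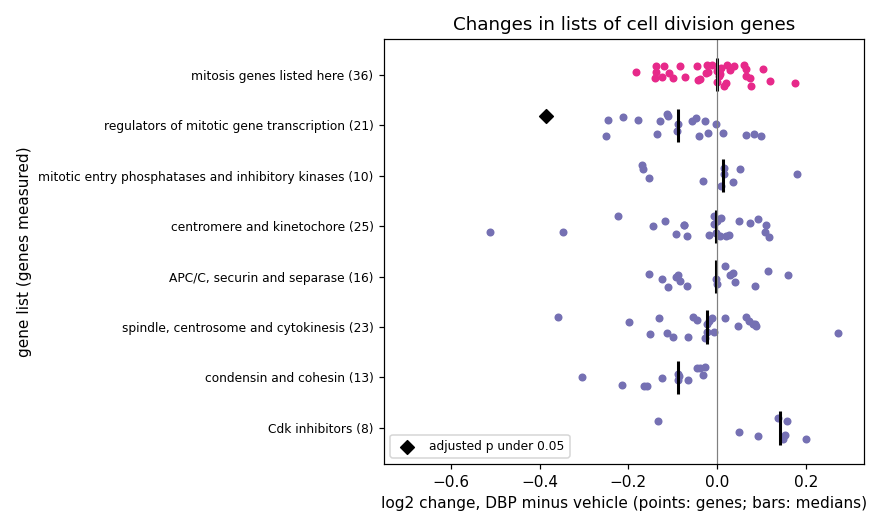
Log2 change (DBP minus vehicle, all 8 arrays) of the 36 mitosis genes and of 7 further lists of cell division genes, 1 point per gene, with bars at the medians and a diamond for the 1 gene with an adjusted p under 0.05, E2f2. Condensin and cohesin genes all lie below 0, and 7 of 8 Cdk inhibitors lie above it.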

How the data were processed

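The authors deposited 1 table of log2 values, with 31099 probe sets on 8 arrays and values to 2 decimals. RMA is the tool that the submitters' processing notes name, its version not given in the sources used here. 57 Affymetrix controls were left out and 31042 probe sets tested. The platform annotation gave 1 symbol to 20826 probe sets, several to 436 and none to 9780; those without a single symbol were tested but not named. DBP and vehicle arrays were compared with limma 3.58.1 in R 4.3.3 (lmFit and eBayes, no trend, not robust, 2-sided). P-values were adjusted by Benjamini-Hochberg over the 31042 probe sets, at a threshold of 0.05. Fits of DBP replicates 1 and 2 or 3 and 4 used the same 4 vehicle arrays, so they share their controls. The procedure was tested on simulated data. The members and lists were chosen with earlier results of these data known, so lists are described by counts and medians with no test.

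All members were named. Further probe sets, 16 in all, were present for 12 of them and are given for some genes only. Every array's value was given for the 10 members with the smallest unadjusted p and for Mki67, Top2a, Ccnb1, Cdk1, Plk1 and Pcna. From each further list the genes past the threshold and up to 3 with the smallest p were named. Kif20b, Cenpf, Smc4, Foxm1 Rbl1, Cdc27, Kif15, Cdkn2b, Cdc25b, Nipbl and the marker genes Amh, Cyp17a1, Sycp3 and Nanos3 were added after their values were seen, as were single array values of Ccna2, Cdca5 and Zwilch. Promoter motifs were counted with Python 3.11.15 and pandas 2.3.3 in the first listed start of each gene, and figures drawn with matplotlib 3.10.9. Same-numbered vehicle and DBP arrays did not deviate together, so no pairing was used. Alternatives were filters on signal, median shift, quantile normalization, a trended robust prior, a replicate block, array weights, a term for low spike-in signal, leaving out cross-hybridising probe sets, a threshold of 0.1, the mean over a gene's probe sets, and leaving out each array.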

Additional observations from a re-analysis of the deposited data

Results flagged for a closer look

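The values of each of the 36 genes, and their mean, were examined for a single array standing far from the other 3 of its group, in 74 groups of 4 arrays in all. Chance alone sets such a mark on about 1 group in 20, and 3 were marked. Smc2 read 7.54 in DBP replicate 4 and 8.13 to 8.24 in the other 3 DBP arrays. Smc4, its partner in condensin, read 7.58 in DBP replicate 3 and 6.87 to 6.93 in the others. Cenpf read 9.66 in vehicle replicate 3 and 9.75 to 9.76 in the other vehicle arrays.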

How the results depend on the processing

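The count of members past the threshold was 0 under each alternative but one, DBP replicates 3 and 4 alone, where it was 1. Their median change was 0.0225 with arrays shifted to the same median, -0.027 with the mean of all probe sets of a gene, -0.056 in DBP replicates 3 and 4, and -0.032 to 0.0075 when each array was left out in turn. In DBP replicates 3 and 4 the count was 4 with probe sets above the median signal (17.5% of all genes passed), 6 with a trended robust prior (16.5%), 5 at an adjusted p under 0.1 (24.4%), 0 after the median shift or quantile normalization, and 0 to 4 when each array was left out. The count of probe sets, 331, was 820 at an adjusted p under 0.1, 577 in DBP replicates 1 and 2, 4129 in DBP replicates 3 and 4 and 82 to 606 when each array was left out; the cause was not tested. The split of 130 higher and 201 lower became 158 and 159 after the median shift. With the replicate number as a block 175 probe sets and 0 members passed; correlations of same-numbered deviations were -0.08 to 0.11, so the numbers were not taken to pair the samples. Under the block the adjusted p of E2f2 was 0.0611 and that of Plvap 0.0971. Of 720 values of members under alternatives 1 passed, Kif20b in DBP replicates 3 and 4, and 18 moved by over 1 SD. A term for the low spike-in signal, which marks DBP replicates 3 and 4, changed the sign of 14 of 34 members. It repeats the changes of the fit of DBP replicates 1 and 2. Shifting the medians changed the sign of 3. The number of arrays, 4 a group, limits the precision.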
